A study of Mus musculus with 6 samples.

Results

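The SLC25 carriers measured here are the genes whose symbol begins with Slc25a in RNA-Seq of mouse iWAT, the inguinal white fat under the skin, which gains thermogenic beige adipocytes in the cold. The table lists 45 such genes, and 41 of them were chosen, leaving out Slc25a4, Slc25a5, Slc25a20 and Slc25a44. The 41 carriers are among 16538 listed genes. A total of 36 carriers and 13855 genes had a mean normalized count of at least 10 and were tested, and 5 carriers were below that filter. The choice went by gene symbol, and it was made with earlier results of these data known.

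SLC25 proteins form the largest family of transporters of the inner mitochondrial membrane, a membrane that lets few metabolites through by itself. Most members exchange a metabolite of the matrix for a metabolite of the cytosol, such as citrate, malate, phosphate, amino acids, nucleotides, cofactors or iron. Adipocytes use the citrate carrier to move acetyl units out of the mitochondrion for fatty acid synthesis, and thermogenic adipocytes depend on a steady supply of fuel and cofactors to the matrix. UCP1, which lets protons leak across the inner membrane and releases heat, belongs to the same protein family under a different symbol.

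The comparison was between adipocyte-specific Nrg4 knockout (AKO) mice, in which Adiponectin-Cre removes the fat-derived hormone neuregulin 4 in adipocytes, and fl/fl control mice, which the labels call wt. All mice were kept at 8°C for 10 days per the labels and ate chow. Each group had 3 samples, each of them RNA pooled from 2 mice of a single genotype, and the age and sex of the mice are not given in the sources used here. Adiponectin-Cre acts in all adipocytes, and the other cells of the depot keep the gene. The samples held 17570335 to 18373707 reads on the listed genes. Nrg4 had normalized counts of 3092 to 3128 in control samples and 2577 to 2691 in AKO samples (log2 fold change -0.24 ± 0.05 SE, adjusted p = 0.298 with limma and 0.0459 with DESeq2). Reads from any part of the transcript count, so this value does not measure the deleted part alone. By qPCR, the paper found almost no Nrg4 mRNA in iWAT of AKO mice.

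White and general adipocyte markers were high in all 6 samples, with summed normalized counts of 456130 to 495765 in control and 395445 to 461916 in AKO samples. The 8 brown or beige markers were all lower in AKO samples, 7 of them with an unadjusted p under 0.05, and their summed counts were 27667 to 39811 in control and 11394 to 14872 in AKO samples. Of 25 skeletal muscle markers 24 were tested, of which 21 had higher and 3 lower means in AKO samples, with summed counts of 939 to 33301 in control and 24624 to 140137 in AKO samples. Myh7 and Xirp2 were at 0 in some sample. The 6 macrophage markers all had higher means in AKO samples, with summed counts of 7876 to 10923 against 9745 to 12978. An unadjusted limma p under 0.05 in the higher direction was reached by 7 muscle and 4 macrophage markers, against 4.41% of all genes. The 5 tested markers of mammary epithelium had wide and overlapping summed counts of 8.6 to 761 in control and 91.2 to 1130 in AKO samples. The part of these cell types in the differences of the carriers was not tested. In bulk tissue, fewer cells of a type and less RNA per cell cannot be told apart.

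Most carriers differed little between the genotypes, and the 3 with the clearest difference were all lower in AKO iWAT. DESeq2 on the recovered reads called Slc25a34, Slc25a42 and Slc25a17, which is 8.33% of the tested carriers against 0.838% of all genes called lower. No carrier was called higher with DESeq2, where 0.253% of all genes were. With limma, the first test here, no carrier passed (smallest adjusted p = 0.233), and the same test called 0.00722% of all genes lower and 0.00722% higher. With edgeR no carrier passed either.

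The groups overlapped in the median over the carriers. Each sample's median deviation of the carriers from the control mean, on the log2 scale, was -0.02, 0.08 and -0.09 in control and -0.12, -0.05 and -0.09 in AKO samples. Control replicate 3 lay at the level of AKO replicate 3 and below AKO replicate 2. The median log2 fold change of the carriers was -0.10 (quartiles -0.18 and 0.05), against 0.01 over all genes tested (quartiles -0.09 and 0.12). Of the 36, 22 (61.1%) had a log2 fold change below 0, against 48.1% of all genes. An unadjusted limma p under 0.05 was reached by 9 carriers (25%) in the lower direction, against 4.69% of genes, and by 1 carrier (2.78%) in the higher direction, against 4.41%. All AKO values lay below all control values for 10 carriers (27.8%), against 8.31% of genes. All AKO values lay above all control values for 2 carriers (5.56%), against 6.14%. The differences were small: 24 of the 36 carriers had a 95% interval wholly within 0.5 on the log2 scale. The same held for 9032 of the 13855 genes tested. A log2 fold change beyond 0.5 in size was found for 3 carriers and for 828 of all genes tested. The median was -0.03 without control replicate 2.

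**Figure D1:**
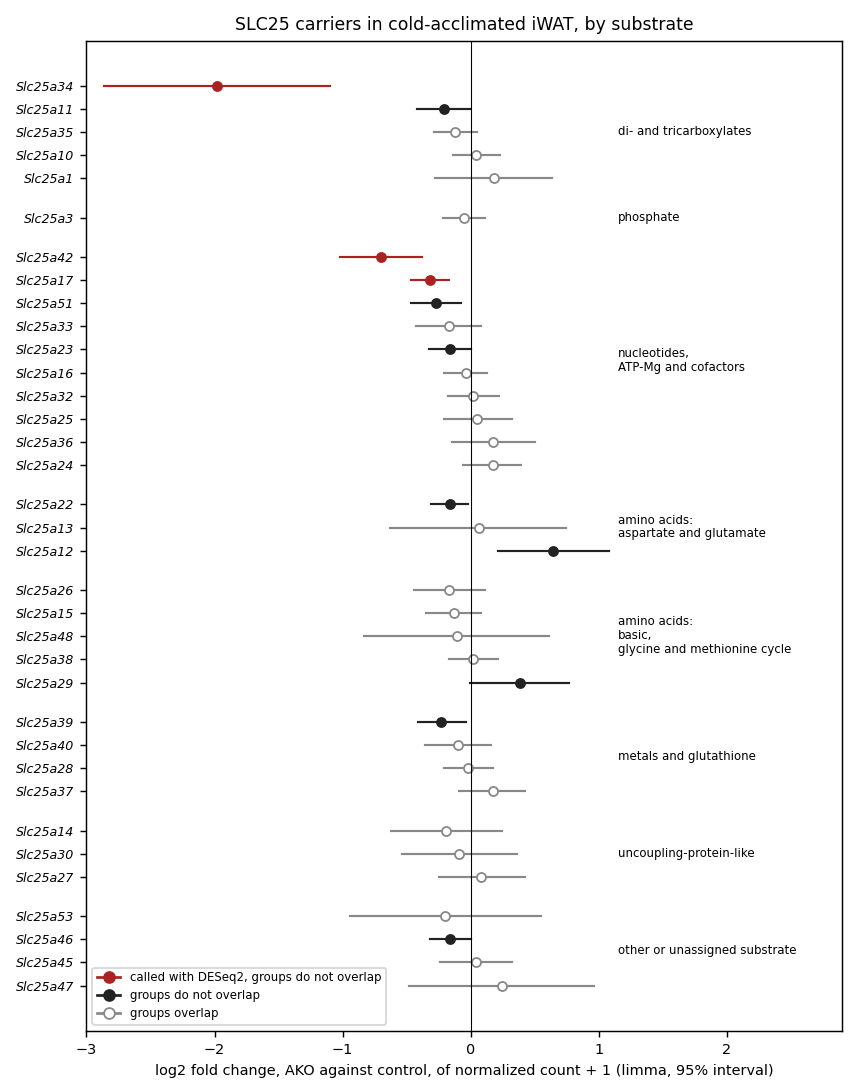
Log2 fold change of 35 of the 36 tested carriers, AKO against control, on the log2(normalized count + 1) scale (x axis), with the 95% interval from limma, grouped by substrate (y axis). Red points were called with DESeq2, filled points had groups that did not overlap, and open points had groups that overlapped. Slc25a34 at -1.98 and Slc25a42 at -0.70 lie farthest to the left and Slc25a12 at 0.64 farthest to the right.

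Levels per kilobase of exon set the carriers far apart. Slc25a1 stood first with a control mean of 12085 normalized counts per kilobase, followed by Slc25a10 with 3407, and both together held 58.6% of the summed control level of the 41 carriers. The 5 highest carriers (Slc25a1, Slc25a10, Slc25a39, Slc25a23 and Slc25a3) held 75.6%, and the 10 highest held 89.8%. The summed level was 26433 ± 4203 (SD, n = 3) normalized counts per kilobase in control and 26429 ± 978.2 in AKO samples (exact permutation test, 2-sided, p = 1). Slc25a34, with the widest difference, stood at rank 20 with a control level of 80.98 per kilobase.

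**Figure D2:**
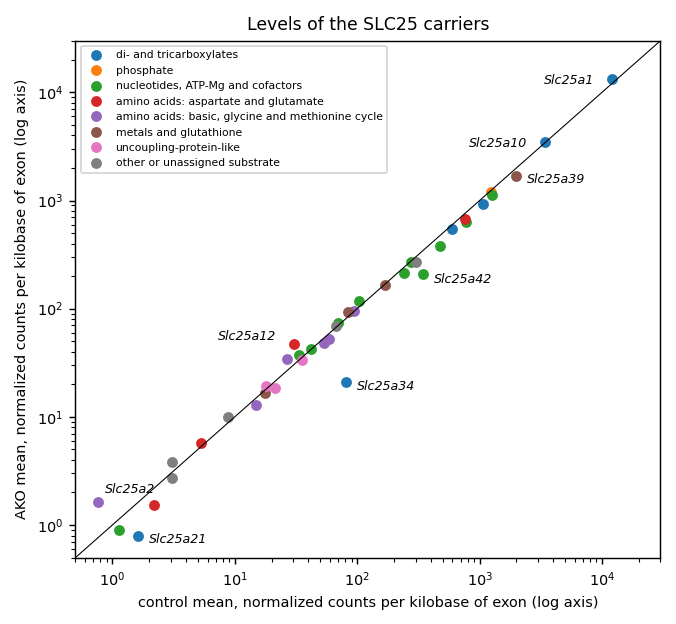
Mean level of 40 of the 41 carriers in AKO (y axis) against control samples (x axis), in normalized counts per kilobase of exon on log axes, coloured by substrate, with the line of equal levels. Most carriers lie near the line, Slc25a34 (80.98 in control, 20.84 in AKO) and Slc25a42 (345.3 and 209.8) lie below it, and Slc25a12 (30.22 and 47.6) lies above it.

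The promoters of the 3 carriers called with DESeq2 are shown because these members were lower together. The sequences are from RefSeq on GRCm38.p6, run 5′ to 3′ on the minus strand, and end where GENCODE begins the gene or at the RefSeq start. Capitals mark the CCAAT box, read as CCAAT or as ATTGG on the opposite strand. The windows lie at chr4:141623835-141624084 for Slc25a34, chr8:70212306-70212531 for Slc25a42 and chr15:81360813-81361015 for Slc25a17.
Slc25a34: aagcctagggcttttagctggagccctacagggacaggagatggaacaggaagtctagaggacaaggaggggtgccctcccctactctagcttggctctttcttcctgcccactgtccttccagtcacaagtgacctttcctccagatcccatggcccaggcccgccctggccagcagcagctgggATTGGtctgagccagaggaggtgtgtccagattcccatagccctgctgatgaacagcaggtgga
Slc25a42: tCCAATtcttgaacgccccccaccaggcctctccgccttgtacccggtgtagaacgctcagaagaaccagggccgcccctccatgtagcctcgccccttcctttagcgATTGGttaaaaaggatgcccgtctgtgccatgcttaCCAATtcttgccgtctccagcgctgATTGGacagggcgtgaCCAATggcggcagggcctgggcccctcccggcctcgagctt
Slc25a17: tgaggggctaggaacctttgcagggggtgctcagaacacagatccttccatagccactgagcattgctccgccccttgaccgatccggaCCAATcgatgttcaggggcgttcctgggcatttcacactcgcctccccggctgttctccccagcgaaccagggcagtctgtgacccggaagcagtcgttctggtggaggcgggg

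The CCAAT box occurred 5 times upstream of Slc25a42 and 1 time each upstream of Slc25a34 and Slc25a17. RefSeq windows matched 32 of the 41 carriers by symbol, with 42 windows of 250 bases before to 50 after a start. CCAAT was found on either strand in 21 of the 42 windows (50%), against 37.4% of all 32851 windows. The ERR response element TCAAGGTCA was in 0 of the 42 and in 0.423% of all windows, and the NRF1 core GCATGCGC was in 1 (Slc25a31) and in 2.71% of all windows. The cAMP response element TGACGTCA was in 2 windows, those of Slc25a25 and Slc25a36, and in 1.79% of all windows. TATAAA was in 2 windows (4.76%) and in 13.6% of all windows. None of the motifs searched contains another, and a match is a description of the window alone.

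The di- and tricarboxylate carriers held both the most abundant carriers and the widest difference. Of 6 listed carriers 5 were tested, 3 lower and 2 higher in AKO samples, with a median log2 fold change of -0.12. Slc25a34 (chr4:141618824-141623821, minus strand) resembles carriers of oxaloacetate by sequence, and its substrate is not settled. Control samples had 278, 235.5 and 135.2 normalized counts, and AKO samples had 63.38, 29.29 and 74.24. Every AKO sample lay below the lowest control sample, and the mean fell by 74.27%. The log2 fold change was -1.98 ± 0.38 (SE), with an adjusted p of 0.233 with limma and 4.3e-06 with DESeq2. The DESeq2 call held without any single sample and with the muscle markers as a covariate (adjusted p = 0.0208).

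Slc25a1 (chr16:17925223-17928219), the citrate carrier that supplies cytosolic acetyl-CoA for lipid synthesis, had normalized counts of 18241, 32867 and 27349 in control and 26726, 31173 and 28377 in AKO samples. Control replicate 1 was the lowest of the 6, and the groups overlapped. The log2 fold change was 0.18 ± 0.20 (95% interval -0.28 to 0.63, limma adjusted p = 0.845), and its sign changed with the fit (-0.19 with the muscle markers as a covariate). Slc25a10 (chr11:120491840-120499187), the dicarboxylate carrier that exchanges malate or succinate for phosphate, had 10689, 12363 and 12261 in control and 12539, 11578 and 12247 in AKO samples. These groups overlapped too, with a log2 fold change of 0.04 and a 95% interval of -0.14 to 0.23.

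Slc25a11, the oxoglutarate carrier that imports malate in exchange for oxoglutarate in the malate-aspartate shuttle, had 2138, 2585 and 2110 in control and 1860, 1970 and 2043 in AKO samples. The AKO values were all below the control values by a small margin (log2 fold change -0.21 ± 0.09, adjusted p = 0.539 with limma and 0.55 with DESeq2). Of its exon bases, 8.915% are shared with Rnf167 on the opposite strand, and whether the counting used strand is not given in the sources used here. Slc25a35, a close relative of Slc25a34 whose substrate is also not settled, had a log2 fold change of -0.12 (95% interval -0.29 to 0.05) and shares 31.3% of its exon bases with Rangrf on the opposite strand.

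The log2 ratio of Slc25a10 to Slc25a11 within a sample does not depend on the scaling of the sample. It was 2.32, 2.26 and 2.54 in control and 2.75, 2.55 and 2.58 in AKO samples, so that the lowest AKO ratio was just above the highest control ratio. The difference was 0.26 (exact permutation test, 2-sided, p = 0.1, the smallest p that 3 samples against 3 allow, Benjamini-Hochberg 0.467 over 7 pairs). The ratios of the other 6 pairs compared overlapped between groups, among them Slc25a12 to Slc25a13, Slc25a37 to Slc25a28, Slc25a39 to Slc25a40 and Slc25a33 to Slc25a36.

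Carriers of nucleotides and cofactors, the largest class, held the most members whose groups did not overlap. Of 12 listed carriers 11 were tested, 7 of them lower and 4 higher in AKO samples, with a median log2 fold change of -0.16. In 5 of the 11 all AKO values lay below the control values, among them Slc25a42, Slc25a17, Slc25a51 and Slc25a23. That is 45.5% of the class, against 8.31% of all genes and 40% of the tested di- and tricarboxylate carriers. Of the 5 nucleotide and cofactor carriers, 4 (36.4% of the class) had an unadjusted p under 0.05, against 4.69% of all genes. That share was 40% among the di- and tricarboxylate carriers. No carrier of the nucleotide class lay wholly above the control values. The summed level of the nucleotide class was 4203 ± 250.1 (SD, n = 3) normalized counts per kilobase in control and 3590 ± 107 in AKO samples (exact permutation test, 2-sided, p = 0.1). The sums for metals and glutathione and for aspartate and glutamate, given below, also did not overlap. The sums of all other classes overlapped (same test, p from 0.2 to 0.8). Among them, di- and tricarboxylates had 17245 ± 3778 in control and 18291 ± 933.2 in AKO samples. No adjustment over the classes was made.

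Slc25a42 (chr8:70184340-70212305, minus strand) carries coenzyme A and adenine nucleotides across the inner membrane. Its normalized counts were 2014, 2529 and 1668 in control and 1196, 1228 and 1350 in AKO samples. The AKO samples lay close together and all below the lowest control sample. The mean fell by 39.25%. The log2 fold change was -0.70 ± 0.14 (adjusted p = 0.254 with limma and 0.000105 with DESeq2), and the DESeq2 call held without any single sample (largest adjusted p = 0.0112). Slc25a16, a relative linked to coenzyme A, had a log2 fold change of -0.04 with a 95% interval of -0.21 to 0.13.

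Slc25a17 (chr15:81318911-81360812, minus strand) is a carrier of the peroxisomal membrane for coenzyme A, FAD and NAD. It had 1296, 1424 and 1362 in control and 1067, 1060 and 1133 in AKO samples. The mean fell by 20.13%. Both groups were tight and did not overlap (log2 fold change -0.32 ± 0.06, adjusted p = 0.254 with limma and 0.0297 with DESeq2). This call was lost in 4 of the 6 DESeq2 fits that leave out a sample, those without AKO replicate 1, AKO replicate 2, control replicate 2 or control replicate 3, with adjusted p up to 0.173.

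Slc25a51, which brings NAD into the matrix, had 3948, 4721 and 4092 in control and 3320, 3757 and 3451 in AKO samples. No AKO sample reached the lowest control sample (log2 fold change -0.27 ± 0.09, adjusted p = 0.45 with limma and 0.147 with DESeq2). With the muscle markers as a covariate, DESeq2 called it (log2 fold change -0.38, adjusted p = 0.0299). Slc25a23, a calcium-regulated carrier of ATP-Mg against phosphate, had 7121, 6577 and 6348 against 5993, 5638 and 6275, and the highest AKO sample was just under the lowest control sample (log2 fold change -0.16, adjusted p = 0.55 with limma).

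The other 6 tested members had groups that overlapped. Slc25a24 and Slc25a25, which carry ATP-Mg as Slc25a23 does, had log2 fold changes of 0.17 and 0.05. Slc25a33 and Slc25a36, carriers of pyrimidine nucleotides, had -0.17 and 0.17, and 14.89% of the exon bases of Slc25a33 are shared with Gm13068 on the opposite strand. Slc25a32, which carries folate and FAD, had 0.02 with a 95% interval of -0.18 to 0.22.

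**Figure D3:**
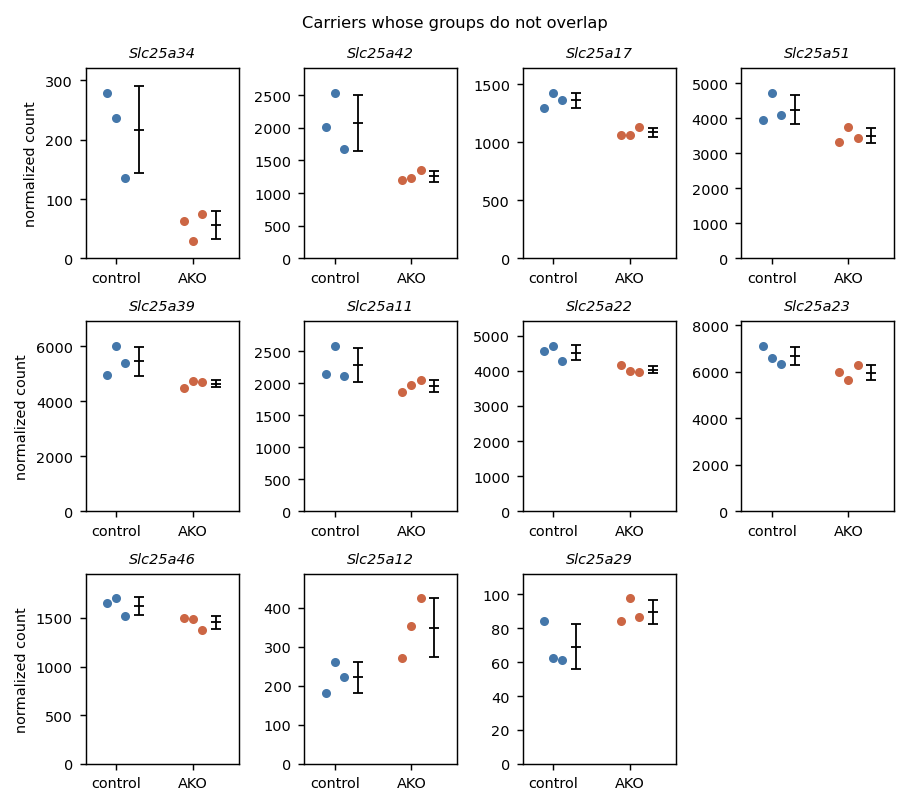
Normalized count in each of the 3 control and 3 AKO samples (points) for 11 of the 12 carriers whose groups did not overlap, with mean and SD as bars beside the points and every y axis starting at 0. The AKO samples lie below the control samples in 9 of the carriers shown and above them in Slc25a12 and Slc25a29.

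The carriers of metals and glutathione were led by Slc25a39, which brings glutathione into the matrix. Its normalized counts were 4951, 6022 and 5399 in control and 4492, 4730 and 4708 in AKO samples. All AKO values were below the control values, with a log2 fold change of -0.23 ± 0.08 and an adjusted p of 0.498 with limma and 0.28 with DESeq2. DESeq2 called it without control replicate 1 (adjusted p = 0.0278) and with the muscle markers as a covariate (adjusted p = 0.00446). Its paralog Slc25a40 had a log2 fold change of -0.10 (95% interval -0.36 to 0.16).

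The mitoferrins, which bring iron into the matrix, overlapped between groups. Slc25a28 had 651.3, 672.1 and 578.4 in control and 609.8, 599.5 and 658.5 in AKO samples, with a 95% interval of the log2 fold change from -0.21 to 0.17. Slc25a37 had a log2 fold change of 0.17 (95% interval -0.09 to 0.42). The summed level of the 4 carriers of metals and glutathione was 2251 ± 190 normalized counts per kilobase in control and 1961 ± 56.52 in AKO samples (exact permutation test, 2-sided, p = 0.1). Slc25a39 alone makes up most of that sum.

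Slc25a3 (chr10:91116574-91124059), which brings in the phosphate that ATP synthase uses, had 6408, 7265 and 6909 in control and 6242, 6692 and 6879 in AKO samples. The groups overlapped, and the log2 fold change was -0.05 ± 0.07 with a 95% interval of -0.22 to 0.11.

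The carriers of aspartate and glutamate went in both directions. Slc25a12 (chr2:71271063-71367749, minus strand), the calcium-regulated aspartate-glutamate carrier that is abundant in muscle and brain, had 181.6, 260.2 and 223.6 in control and 270.8, 353.4 and 424.2 in AKO samples. Every AKO sample was above the highest control sample, with a log2 fold change of 0.64 ± 0.19 and an adjusted p of 0.414 with limma and 0.0736 with DESeq2. DESeq2 called it without AKO replicate 1 (adjusted p = 0.011). Slc25a13, the aspartate-glutamate carrier best known from liver, had 17 to 30 reads a sample and a log2 fold change of 0.06 (95% interval -0.63 to 0.74).

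The skeletal muscle markers differed widely between samples. Their mean log2 level was 3.57, 9.21 and 8.05 in control and from 8.5 to 10.37 in AKO samples, with AKO replicate 3 the highest, and the order of Slc25a12 was the order of this level within each group of 3. Across groups the order differed, since AKO replicate 1 had a lower muscle level and a higher Slc25a12 count than control replicate 2. With that level as a covariate the log2 fold change was 0.36 with limma, and the DESeq2 adjusted p was 0.806. Among the 36 carriers, Slc25a3 was the other with the order of the muscle level within both groups. With the covariate, the limma log2 fold changes of Slc25a34, Slc25a42 and Slc25a17 were -1.73, -0.78 and -0.38, and that limma fit called no gene. The part of muscle RNA in these differences was not tested.

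**Figure D4:**
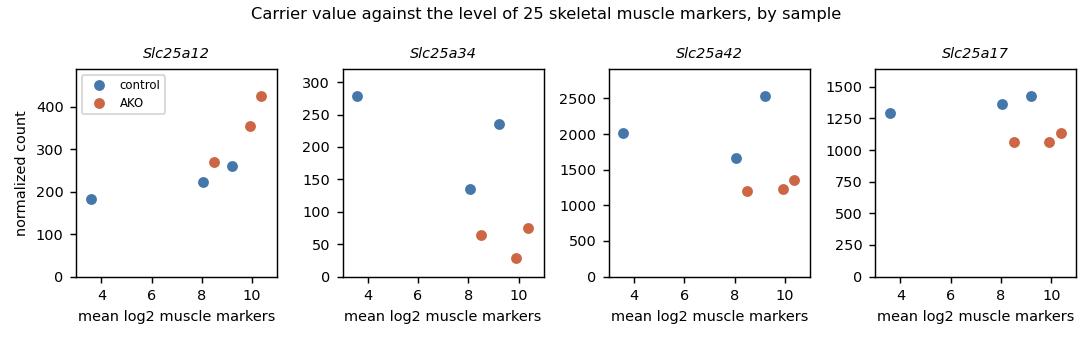
Normalized count of Slc25a12, Slc25a34, Slc25a42 and Slc25a17 (y axes, from 0) against the mean log2 level of 25 skeletal muscle markers (x axis) in each control and AKO sample. Slc25a12 is highest in AKO replicate 3, at 424.2 with a muscle level of 10.37, while all AKO points of the other 3 carriers lie below all of their control points.

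Slc25a22, a glutamate carrier that works with protons, had 4562, 4716 and 4282 in control and 4154, 3993 and 3954 in AKO samples. The AKO values lay below the control values by a small margin (log2 fold change -0.16 ± 0.06, adjusted p = 0.512 with limma and 0.492 with DESeq2). The summed level of the aspartate and glutamate carriers was 792 ± 39.33 normalized counts per kilobase in control and 728 ± 7.207 in AKO samples (exact permutation test, 2-sided, p = 0.1), and Slc25a22 makes up most of it.

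The carriers of basic amino acids, glycine and the methionine cycle had 5 of 6 listed members tested, 3 lower and 2 higher in AKO samples (median log2 fold change -0.11). Slc25a38, the glycine carrier needed for haem synthesis, had 265.9, 267.8 and 245 in control and 266, 258.7 and 263.2 in AKO samples. The groups overlapped, with a 95% interval of -0.17 to 0.21. Slc25a26, which brings S-adenosylmethionine into the matrix, had 247.9, 318.3 and 287.7 against 245.8, 279.2 and 233.3 and overlapped as well (log2 fold change -0.17 ± 0.12).

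Slc25a29, a carrier of basic amino acids, had 84.29, 62.37 and 60.99 in control and 84.51, 97.63 and 86.77 in AKO samples. Its lowest AKO sample and its highest control sample were nearly equal, and the log2 fold change was 0.38 ± 0.17 (adjusted p = 0.556 with limma and 0.99 with DESeq2). Slc25a15, the ornithine carrier, had a log2 fold change of -0.13 (95% interval -0.35 to 0.08), and Slc25a48, a choline carrier, had -0.11 with the wide interval of -0.83 to 0.61.

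The 3 uncoupling-protein-like carriers were low and overlapped between groups. Slc25a30 had 155.5, 186 and 142.3 in control and 146, 118.1 and 197.6 in AKO samples, and Slc25a14 had 46.16, 51.62 and 52.86 against 50.9, 43.93 and 37.6. Their log2 fold changes were -0.09 ± 0.20 and -0.19 ± 0.18. Slc25a27 had 0.08 (95% interval -0.25 to 0.42). Ucp1, outside the symbols chosen here, had normalized counts of 18058, 25393 and 16827 in control and 5401, 4836 and 7801 in AKO samples (log2 fold change -1.75 ± 0.21, adjusted p = 0.0703 with limma and 1.79e-06 with DESeq2).

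Among carriers of other or unassigned substrates, Slc25a46, a protein of the outer mitochondrial membrane that takes part in mitochondrial dynamics, had 1658, 1701 and 1523 in control and 1498, 1485 and 1377 in AKO samples. The groups did not overlap, and the gap between them was small (log2 fold change -0.16 ± 0.07, adjusted p = 0.539 with limma). Of its exon bases, 7.06% are shared with B930094E09Rik on the opposite strand. Slc25a45 had 174.6, 210.8 and 171.8 against 202.6, 171.8 and 197.6, with a 95% interval of -0.24 to 0.32. Slc25a47 and Slc25a53 had at most 36 reads in a sample and 95% intervals of -0.48 to 0.96 and -0.94 to 0.55.

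The 5 carriers below the filter were Slc25a18, Slc25a2, Slc25a21, Slc25a31 and Slc25a43, with 0 to 10 reads in a sample. A difference between the groups was not detectable at this depth for these carriers. Slc25a21, the oxoadipate carrier, had up to 10 reads, and Slc25a31, the adenine nucleotide translocase of the testis, had 2 to 3 reads in each sample.

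Genes that work with the carriers had small differences. Carrier proteins reach the inner membrane through the TOM pore and the TIM22 complex, and 11 of 12 tested genes of this route were lower in AKO samples (median log2 fold change -0.14), none of them called with limma or DESeq2. Tomm40, the pore of the outer membrane, had 1079, 1198 and 1116 in control and 953.6, 912.8 and 989.2 in AKO samples, and the groups did not overlap (log2 fold change -0.25 ± 0.07, limma adjusted p = 0.379). Timm10, a chaperone of the intermembrane space, had a log2 fold change of -0.33 ± 0.11 with an adjusted p of 0.468.

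Of 19 other transporters of the mitochondrial membranes, 15 were lower and 4 higher (median log2 fold change -0.03), where 48.1% of all genes were lower. DESeq2 with all samples called 1 of them, where it called 0.838% of all genes lower. That gene was Letm1, a protein of the inner membrane for cation exchange, with 3276, 3940 and 3157 in control and 2641, 2598 and 2617 in AKO samples. The groups did not overlap, with an SD of 421.8 in control and 21.51 in AKO samples (log2 fold change -0.39 ± 0.09, adjusted p = 0.298 with limma and 0.00672 with DESeq2). This DESeq2 call was lost without AKO replicate 1, 2 or 3, each left out in turn (adjusted p up to 0.1). The pyruvate carrier subunits Mpc1 and Mpc2 overlapped between groups, with log2 fold changes of 0.22 ± 0.18 and -0.00 ± 0.15. Ucp2 overlapped as well (95% interval -0.24 to 0.20), and Ucp3 had values of 1379 to 1508 in AKO samples, all below the control samples (log2 fold change -0.38, DESeq2 adjusted p = 0.159). With the muscle markers as a covariate, DESeq2 also called Mtch2 (adjusted p = 0.0299). Fits of DESeq2 without a sample called Mtch2, Abcb8 and Ucp3 (smallest adjusted p 0.0445, 0.0304 and 0.04). All AKO values lay below all control values in 6 of the 19 and above in 1, against 8.31% and 6.14% of all genes.

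The enzymes that pair with the carriers of the malate-aspartate shuttle were 3 of 4 lower, none called with limma or DESeq2 over all samples. With the muscle markers as a covariate, DESeq2 called Mdh1 (adjusted p = 0.0223) and Mdh2 (adjusted p = 0.0138), and it called Mdh1 without control replicate 1 (adjusted p = 0.037). Mdh2, the malate dehydrogenase of the matrix, had a log2 fold change of -0.27 ± 0.10 (limma adjusted p = 0.522), and its groups did not overlap. Of 8 genes for iron, haem and iron-sulphur clusters 7 were lower (median -0.16) and none was called with limma or DESeq2 over all samples, while DESeq2 called Alas1 without AKO replicate 3 (adjusted p = 0.0072). The 4 tested genes of glutamate and ornithine metabolism and the 4 genes of cytosolic citrate and NADPH had medians of 0.10 and 0.05, also with none called with limma or DESeq2 over all samples. Mdh1, called with the covariate, is among the genes of cytosolic citrate and NADPH. Acly, which splits the citrate exported by Slc25a1, had 19934, 48376 and 32728 in control and 35899, 61727 and 39327 in AKO samples. As for Slc25a1, control replicate 1 was the lowest sample, and the groups overlapped (log2 fold change 0.49 ± 0.32).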

How the data were processed

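Libraries of iWAT RNA from 3 control and 3 AKO samples were sequenced, and the paper names BGI Global Genomic Services for its RNA-Seq. Reads were aligned with STAR to GRCm38.p6 and counted with featureCounts on a GENCODE annotation. The cold period is from the labels, and the paper's text gives a slightly longer one. The deposited signal is a normalized count, made from gene reads and a DESeq2 size factor for each sample, with no division by gene length. Per-gene log2 fold changes and p-values (raw and adjusted) of the authors' genotype test, deposited in the same table, were not used.

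Values were whole multiples of the value of a single read, and division by it gave whole reads for 100% of the values (tolerance 0.05). limma (version 3.58.1, R 4.3.3) with a variance trend was run on log2(value + 1) for genes with a mean of at least 10, with Benjamini-Hochberg adjustment over all genes and a threshold of 0.05. A fold change on this scale understates the change of low genes. edgeR (version 4.0.16) and DESeq2 (version 1.42.0) were run on the recovered reads. The fits of limma, edgeR, DESeq2 and limma-voom with genotype alone were tested on simulated data. A 2-sided exact permutation test was used for sums and ratios.

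The samples held 17570335 to 18373707 reads, and counting error weighs most on carriers with few reads. The p-values measure the spread between 3 pools a group. Within a group, samples differed by more than sampling noise, and all 6 were kept. Exon lengths and positions are from GENCODE on GRCm38, matched by symbol for 15866 of 16538 genes (95.94%). The members and the gene lists were chosen with earlier results of these data known. Carriers given by sample were the 2 highest per kilobase in each substrate class, those called with limma or DESeq2, those whose groups did not overlap with a log2 fold change of at least 0.3 in size, and the members of ratio pairs that did not overlap. Other carriers are given by range or fold change, and 1 carrier is not reported here by name. Alternatives were other pseudocounts, filters, scalings and tools, the replicate block, a muscle covariate, and leaving out each sample. DESeq2 with its own filtering and DESeq2 without each sample were added after seeing the data.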

Additional observations from a re-analysis of the deposited data

How the results depend on the processing

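With limma under the pseudocounts of 0.1 and 10, other filters, TMM scaling, a muscle covariate and leaving out each sample, and with edgeR and limma-voom, 0 carriers were called. DESeq2 called 3 carriers, 3 with its own filtering, 5 with the muscle covariate and 2 to 4 without each sample in turn. Over all genes limma called 2 and DESeq2 151 (136 with its own filtering, 172 with the muscle covariate, 81 to 165 without each sample). limma called 6 genes with at least 10 in every sample, 0 with the muscle covariate and 0 to 3 without each sample, and edgeR called 2 or 3. The cause of these differences was not tested. The carriers' median log2 fold change of -0.10 was -0.03 without control replicate 2 in both limma and DESeq2, and ran from -0.13 to -0.03 without each sample. The number of pairs whose ratios did not overlap was 1, became 2 with pseudocount 10, and ran from 1 to 4 without each sample. Of the 21 carriers that were given by sample or had groups that did not overlap, 15 kept the sign of their log2 fold change in every fit. A change of sign is unlikely for those picked because their groups did not overlap. The carriers that changed sign were Slc25a1, Slc25a10, Slc25a28, Slc25a30, Slc25a38 and Slc25a45, all with groups that overlapped. With the replicate number as a block (replicate block), 0 carriers and 2 genes were called and the median was -0.10. Deviations of samples sharing a number correlated at 0.135, -0.351 and 0.24, so that the samples share only a number. TMM scaling moved the samples by at most 0.0125 on the log2 scale. Low read numbers limit Slc25a13, Slc25a47, Slc25a48, Slc25a53 and the 5 carriers below the filter.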
